A study of Mus musculus with 67 samples.

Results

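Transition bins are the places in the genome where the DNA copy number profile of an untreated blastomere turns most steeply between a high and a low stretch. They were chosen by the median log2 value of the 20 DMSO cells in each of 12018 autosomal bins, listed every 200 kb. The score of a bin was the absolute difference between the mean of the next 5 bins and the mean of the previous 5. After the top and bottom 20% of bins by level were set aside, the top 15% of the rest by score were taken, which gave 1066 transition bins (8.87% of the 12018). The remaining 6035 scored bins of middle level are the comparison below, with 2404 high and 2404 low bins. Since the DMSO values made the choice, the steepness of the same DMSO cells at these bins is a description and no test is given for it.

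The cells were single blastomeres of mouse embryos collected at the 8-cell stage after development in vitro. They are labelled BDF1, the name of an F1 hybrid mouse; the labels do not say which generation was hybrid. The Aphidicolin group comprised 47 cells of 6 embryos exposed to 75 ng/ml aphidicolin during the 4-cell stage, of which 5 embryos gave 8 cells and 1 gave 7. The DMSO group comprised 20 cells of 3 embryos (4, 8 and 8 cells) that received the solvent alone at the same stage. Each cell was profiled by scRepli-seq, in which the amplified genome of 1 cell is sequenced and the density of reads along it stands for relative copy number. Embryos are named by treatment and number, and cells by treatment and library number. The embryo was the replicate throughout, because the cells of 1 embryo share their history.

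A genome is copied in large domains, early ones in open, gene-rich chromatin and late ones in compact, gene-poor chromatin. Between them lie timing transition regions, stretches with few initiation sites that forks from the early side cross. During S phase early domains have already doubled, so that their copy number stands above that of late domains, and the border between both appears as a step. Aphidicolin inhibits the replicative DNA polymerases, and at low dose slows forks and exposes fragile sites, loci that break when replication stays incomplete. The metadata name the collection window of all 67 cells as G1 to early S phase, and whether the shared profile reflects replication timing, amplification or mappability was not tested.

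Between 0.739 and 2.65 M reads stood behind an Aphidicolin cell (median 2.01 M) and between 1.47 and 2.83 M behind a DMSO cell (median 2.26 M). Embryo means of depth were 1.96 ± 0.0949 M reads (SD, n = 6) for Aphidicolin and 2.21 ± 0.115 M (SD, n = 3) for DMSO. On the log2 scale the X chromosome minus the autosomes was -1.02 ± 0.07 (SD, n = 6) in Aphidicolin embryos and -0.24 ± 0.03 (SD, n = 3) in DMSO embryos, without overlap. X number and treatment therefore cannot be told apart in any difference below, and the part of depth was not tested. A value of a bin is the log2 read density of a 1-Mb window centred on it, so neighbouring bins share reads and a step spans 3 Mb.

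The 1066 transition bins joined into 366 transition regions, defined as runs of neighbouring transition bins with the same direction. Of these, 189 led upward along the chromosome and 177 downward, with 547 and 519 bins. A region was 0.6 Mb wide in the median (0.2 to 1.2 Mb), and 56 consisted of 1 bin. The median level of a transition bin was -0.04, close to that of the whole cell, and its median score was 0.633 on the log2 scale against 0.199 at the other middle-level bins. The weakest bins inside the threshold were chr10:96400001-96600000 (score 0.5364), chr1:194400001-194600000 (0.5362) and chr4:12200001-12400000 (0.5361). Just outside lay chr12:89200001-89400000 (0.5359), chr9:102200001-102400000 (0.5357) and chr17:54000001-54200000 (0.5356), so the threshold falls in a continuous range of scores.

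Transition bins were found on all 19 autosomes. They made up 12.7% of the bins of chromosome 12, 11.4% of chromosome 18 and 11% each of chromosomes 3 and 7. The lowest shares were 5.24% on chromosome 4 and 5.67% on chromosome 16. Direction alternated along a chromosome in 256 of 347 pairs of neighbouring regions (73.8%), with a median gap of 3.6 Mb between alternating neighbours and 7.6 Mb between neighbours of 1 direction. The rule scores only 5 bins on either side of a bin and leaves out gentler borders. Nothing is therefore read from this spacing about the length of high and low domains.

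The first question was whether the steps chosen in DMSO cells are also present in Aphidicolin cells, which the choice did not use. They were: the level changed in the DMSO direction at 1057 of the 1066 transition bins in Aphidicolin embryos (limma, Benjamini-Hochberg adjusted p under 0.05 over all 11828 scored bins), and at 0 of them against it. Over all scored bins 58.7% were called in the DMSO direction, and 59.6% in either direction. Of the other middle-level bins, 3600 of 6035 (59.7%) were called in the DMSO direction. The median step of Aphidicolin embryos was 0.40 at transition bins, 0.13 at the other middle-level bins and 0.13 over all scored bins, on the log2 scale. Neighbouring bins overlap, so these counts are not counts of independent places.

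The 9 transition bins not called all had a positive mean step in Aphidicolin embryos. The smallest steps were those of 2 neighbouring bins at chr3:26400001-26800000, at 0.07 ± 0.06 and 0.08 ± 0.05 (SE, n = 6; limma adjusted p = 0.301 and 0.229), where the DMSO scores were 0.624 and 0.610. The largest was that of chr7:23800001-24000000, at 2.57 ± 0.99 (SE, n = 6; limma adjusted p = 0.0505), which is described with its neighbours below. The remaining 6 had limma adjusted p-values between 0.0504 and 0.0820 and mean steps between 0.15 and 0.26.

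To set embryos side by side, the step of a cell was taken as its median over all transition bins, signed so that the DMSO direction is positive, and the step of an embryo as the mean of its cells. It was 0.319, 0.348, 0.530, 0.607, 0.525 and 0.20 in Aphidicolin 1 to 6, and 0.691, 0.694 and 0.563 in DMSO 1 to 3. At the other middle-level bins the values were 0.105, 0.118, 0.179, 0.20, 0.151 and 0.0684 in Aphidicolin 1 to 6, and 0.231, 0.210 and 0.186 in DMSO 1 to 3. In all 6 Aphidicolin embryos the step was larger at transition bins, by 0.28 ± 0.11 (SD, n = 6). The exact two-sided sign-flip permutation p was 0.03125, the smallest that 6 embryos can give, and 0.125 after adjustment over 6 tests, so that this test does not pass the correction. From that smallest p it could pass only if several of the other tests were as low, so the failure says little about the step.

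Cells of 1 embryo were not alike. The cell values ran from -0.04 in Aphidicolin cell 73 to 0.70 among the 47 Aphidicolin cells (median 0.521), and from 0.285 in DMSO cell 23 to 0.736 among the 20 DMSO cells (median 0.687). Of the Aphidicolin cells 10 lay under 0.2, in 3 embryos (cells 27 and 29 of Aphidicolin 1, cells 36, 39, 40 and 42 of Aphidicolin 2, and cells 68, 69, 70 and 73 of Aphidicolin 6), and of the DMSO cells 0 of 20. Aphidicolin 6 alone held both a cell at -0.04 and a cell at 0.572, whereas the cells of Aphidicolin 4 stayed between 0.565 and 0.673. In DMSO 3 the cells ran from 0.285 to 0.699, while those of DMSO 1 stayed between 0.669 and 0.707.

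Low steps stood beside a small distance between the median of the high bins and the median of the low bins. High and low bins were chosen from the DMSO values, which raises this distance in DMSO cells. In these 10 cells that distance lay between -0.11 and 0.34 on the log2 scale, within a range of -0.11 to 1.07 (median 0.820) over all 47 Aphidicolin cells and 0.58 to 1.15 (median 1.02) over DMSO cells. Their depth was 1.5 to 2.4 M reads (median 2.04 M) and they had between 0 and 15 called breakpoints (median 6). The other 37 Aphidicolin cells had 0.739 to 2.65 M reads (median 2.01 M) and 0 to 30 breakpoints (median 7). A relation of the step with depth or breakpoints was not tested. Cell 73 had 30.5% of the transition bins in the DMSO direction, the lowest share. At the other middle-level bins its share was 43.2%. Over all Aphidicolin cells the median share was 97.3% at transition bins and 77.5% at the other middle-level bins. Over DMSO cells the medians were 99.95%, which the choice of bins raises, and 84% at the other bins.

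**Figure D1:**
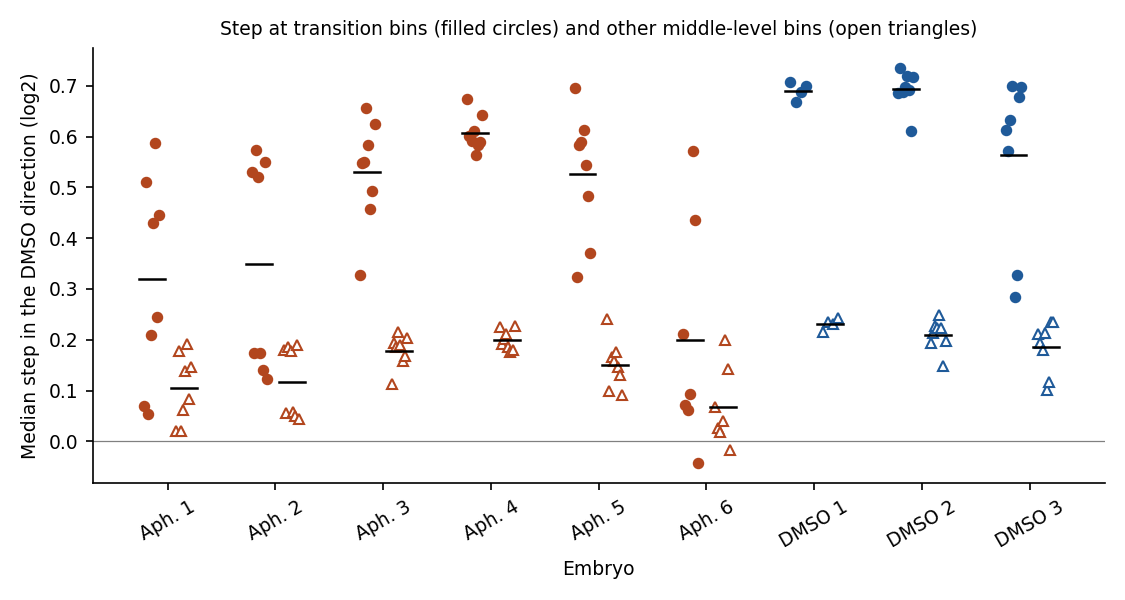
Step at the transition bins by embryo, with the 6 Aphidicolin embryos left of the 3 DMSO embryos. Filled circles are the median step of 1 cell over the transition bins, open triangles that over the other middle-level bins (log2 scale, DMSO direction positive), and black lines the mean of an embryo's cells; the low circles of Aphidicolin 1, 2 and 6 lie under 0.2, where no DMSO cell lies.

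The second question was whether steps were of another size after aphidicolin. Because the DMSO cells had been used for the choice, the transition bins were chosen again without the DMSO embryo being measured. Of the 1066, 1065 and 1065 bins chosen this way without DMSO 1, 2 and 3, 91.1%, 79.9% and 86.7% were also in the full choice. The step was then 0.317, 0.349, 0.529, 0.601, 0.514 and 0.198 in Aphidicolin 1 to 6, against 0.677, 0.651 and 0.539 in DMSO 1 to 3. The groups averaged 0.418 ± 0.154 (SD, n = 6) in Aphidicolin and 0.622 ± 0.0732 (SD, n = 3) in DMSO. Aphidicolin 4 lay above DMSO 3 and the other 5 Aphidicolin embryos below all DMSO embryos. The difference of -0.20 did not pass the test (exact two-sided permutation over 84 splits, p = 0.0595, adjusted p = 0.125).

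The size of the whole profile moved with the step. The distance between high and low bins was 0.560, 0.591, 0.861, 0.944, 0.822 and 0.309 in Aphidicolin 1 to 6, and 1.03, 1.06 and 0.903 in DMSO 1 to 3. Here high and low bins were chosen from all DMSO cells, which raises the DMSO distances. For the shares, high and low bins were chosen again without the DMSO embryo being measured, as for the step. Expressed as a share of the distance between these bins, the step was 57.1%, 59.3%, 61.7%, 64%, 63.2% and 64.7% in Aphidicolin 1 to 6, and 66.5%, 63.6% and 61.3% in DMSO 1 to 3. These shares overlapped between the groups, and the embryo with the flattest profile, Aphidicolin 6, had one of the highest. They averaged 61.7 ± 2.95% (SD, n = 6) in Aphidicolin and 63.8 ± 2.64% (SD, n = 3) in DMSO. The difference of -2.12 points did not pass the test (exact two-sided permutation over 84 splits, p = 0.357, adjusted p = 0.536), and it was 0.38 points without DMSO 1.

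By bin, 0 of 11828 scored bins had a different step in Aphidicolin than in DMSO embryos (limma, Benjamini-Hochberg adjusted p under 0.05), which is a background of 0.0%. At an unadjusted p under 0.05 there were 2228, of which 579 were transition bins. The choice used the DMSO values of the same contrast, so nothing is read from that number.

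Aligned on their steepest bin and turned so that the high side lies to the right, 348 of the regions had values over 3 Mb to each side. From 1 Mb before to 1 Mb after the steepest bin the mean level changed by 0.33, 0.33, 0.57, 0.69, 0.62 and 0.16 in Aphidicolin 1 to 6, and by 0.78, 0.82 and 0.64 in DMSO 1 to 3. Between the points 3 Mb away on either side it differed by only 0.08, 0.08, 0.12, 0.15, 0.15 and 0.03 in Aphidicolin embryos, and by 0.17, 0.17 and 0.15 in DMSO embryos. On average, then, a transition joined a local low and a local high. The rule favours this shape, because it scores only 5 bins on either side of a bin of middle level. Alternating neighbours lay a median of 3.6 Mb apart, so the levels 3 Mb away also average over opposite steps. Nothing is read from them about the length of domains. The steepest bin lay within 200 kb of the DMSO position in 73.3%, 79.9%, 91.1%, 94.0%, 90.8% and 53.2% of regions in Aphidicolin 1 to 6. In DMSO 1 to 3 the shares were 95.7%, 97.1% and 96.0%, which the choice of the regions raises.

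**Figure D2:**
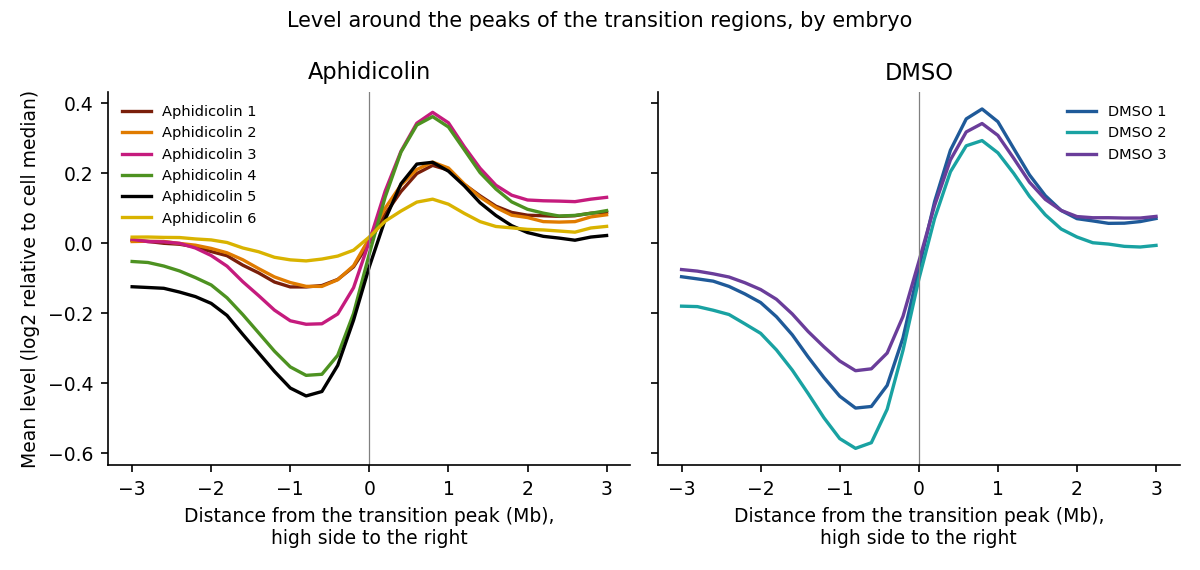
Mean log2 level over 348 transition regions against the distance from the steepest DMSO bin in Mb, with the high side to the right, for the Aphidicolin embryos (left panel) and the DMSO embryos (right panel). Each line is 1 embryo, and the change from -1 to 1 Mb is smallest in Aphidicolin 6 (0.16) and largest among Aphidicolin embryos in Aphidicolin 4 (0.69), while DMSO embryos lie between 0.64 and 0.82.

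The order of the regions by steepness was partly kept. Leaving out 4 regions of chromosome 7 near windows of few reads (chr7:7200001-7800000, chr7:8000001-8200000, chr7:20800001-21200000 and chr7:23800001-25000000) left 362. Across these the DMSO score and the mean step of Aphidicolin embryos had a Pearson's r of 0.71 and a Spearman's rho of 0.63. For single Aphidicolin embryos Pearson's r was lowest in Aphidicolin 6 (0.29) and highest in Aphidicolin 4 (0.70). These are correlations across regions of the same chromosomes, given as a description, since regions are not independent and share libraries and base composition. Of all 366 regions, 326 had a positive step in each of the 6 Aphidicolin embryos, and all 366 had a positive mean over them.

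Spread between the cells of an embryo was taken per bin as the scaled median absolute deviation of the step. At transition bins it was 0.246, 0.264, 0.166, 0.143, 0.157 and 0.209 in Aphidicolin 1 to 6, and 0.103, 0.136 and 0.202 in DMSO 1 to 3. At the other middle-level bins it was 0.149, 0.149, 0.153, 0.144, 0.122 and 0.128 in Aphidicolin 1 to 6, and 0.108, 0.135 and 0.162 in DMSO 1 to 3. The difference between both kinds of bin was 0.06 ± 0.05 (SD, n = 6) in Aphidicolin embryos and positive in 5 of 6, with Aphidicolin 4 at -0.001. It did not pass the test (exact two-sided sign-flip permutation p = 0.0625, adjusted p = 0.125). In DMSO embryos the difference was 0.01 ± 0.02 (SD, n = 3), and the groups were not tested against each other on this measure.

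The 10 regions with the largest scores were described one by one, and 5 of them lie on chromosome 7. The 2 steepest of all bound a stretch at chr7:21200001-23600000 in which several embryos had few or no reads. On its left side, chr7:20800001-21200000 fell with a DMSO score of 4.79, and on its right side chr7:23800001-25000000 rose with a score of 5.31. The median level of the stretch was -6.35, 0.05, -5.13, -1.17, -1.28 and -0.83 in Aphidicolin 1 to 6, and -0.24, -5.16 and -5.91 in DMSO 1 to 3. The deep drop was thus present in embryos of both groups, Aphidicolin 2 and DMSO 1 stayed near 0, and Aphidicolin 4, 5 and 6 lay between. Cells of 1 embryo ran from -0.18 to 0.41 in Aphidicolin 2 and from -0.37 to 0.00 in DMSO 1. They spread far more in Aphidicolin 1 (-10.3 to -4.24), Aphidicolin 6 (-8.30 to 0.56) and DMSO 3 (-10.8 to -4.35). In Aphidicolin 3 they ran from -6.14 to -3.50 and in DMSO 2 from -6.08 to -4.07.

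At the left border the steps were 4.85, 0.45, 5.53, 1.74, 1.69 and 1.27 in Aphidicolin 1 to 6 and 0.72, 4.59 and 5.36 in DMSO 1 to 3, in the DMSO direction (limma adjusted p = 0.00906 for the step in Aphidicolin embryos). At the right border they were 7.96, -0.10, 4.95, 0.89, 1.05 and 0.66 in Aphidicolin embryos and 0.24, 4.84 and 6.15 in DMSO embryos. Such steps are set by windows near 0 reads, for which a floor of 0.5 reads stood in, so their size has only a bound. With all bins near such windows left out, the step at transition bins in Aphidicolin embryos still exceeded that at other bins by 0.28.

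The next 2 regions, chr7:31600001-32400000 (fall, score 1.16) and chr7:34400001-35200000 (rise, score 1.06), bound a strip of 2 Mb at chr7:32400001-34400000. The level of the strip minus that of its flanks was -1.77, -0.44, -2.20, -1.35, -1.27 and -0.61 in Aphidicolin 1 to 6, and -0.76, -2.30 and -1.21 in DMSO 1 to 3. The lowest values were those of Aphidicolin 3 and DMSO 2, and the mildest that of Aphidicolin 2. Cells of 1 embryo spread most in Aphidicolin 6 (-1.82 to -0.12) and Aphidicolin 1 (-2.97 to -1.42), and ran from -1.005 to -0.11 in Aphidicolin 2. They lay closest together in DMSO 1 (-0.83 to -0.66).

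Steps at the left edge of the strip were 2.65, 0.23, 3.21, 1.17, 1.21 and 0.56 in Aphidicolin 1 to 6 and 0.47, 3.17 and 1.11 in DMSO 1 to 3 (Aphidicolin mean 1.51 ± 0.37 (SE, n = 6), limma adjusted p = 0.00816). At the right edge they were 1.43, 0.41, 1.80, 0.97, 1.02 and 0.54 in Aphidicolin embryos and 0.61, 2.04 and 0.93 in DMSO embryos (Aphidicolin mean 1.03 ± 0.17 (SE, n = 6), limma adjusted p = 0.00147). Over the 366 regions the range of the step between the 9 embryos had a median of 0.643, and the 4 regions whose range exceeded 1.5 were these 4 on chromosome 7.

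**Figure D3:**
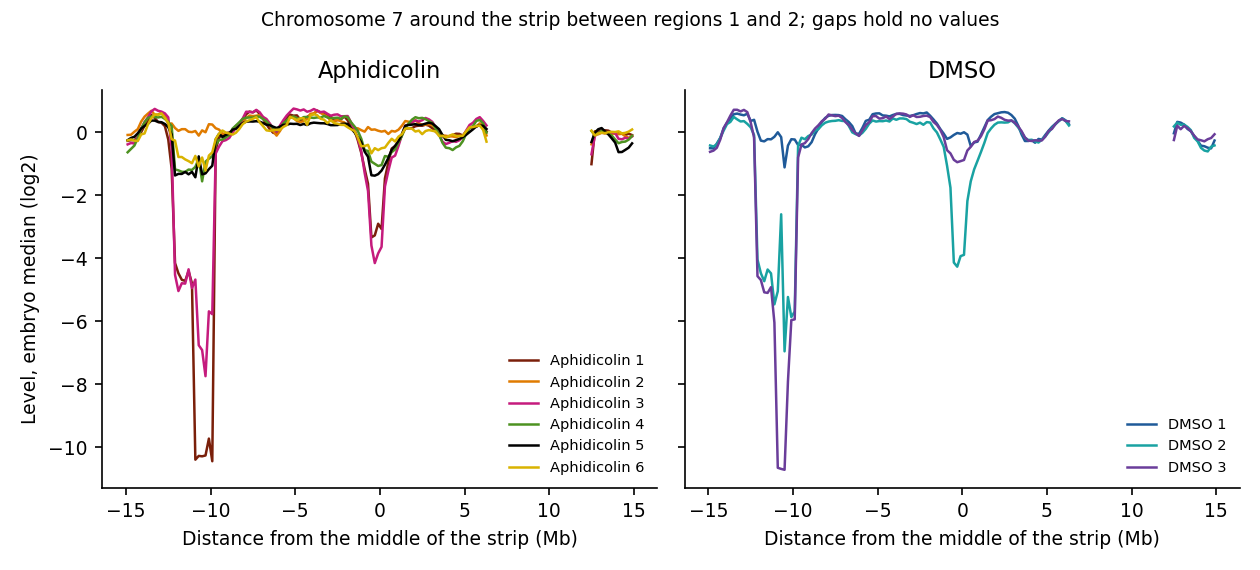
Median log2 level of each embryo along chromosome 7 against the distance in Mb from the middle of the strip at chr7:32400001-34400000, with Aphidicolin embryos in the left panel and DMSO embryos in the right panel, each line 1 embryo. The stretch of few reads lies to the left of the strip, and in both panels some embryos drop deeply there (Aphidicolin 1 and 3, DMSO 2 and 3), while Aphidicolin 4, 5 and 6 lie between and Aphidicolin 2 and DMSO 1 stay near 0; gaps in the lines are positions without values.

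The other 6 of the 10 steepest regions were on 5 further chromosomes and chromosome 7. Region chr2:89800001-90400000 rose with a DMSO score of 0.963. Its step was 0.78, 0.73, 0.79, 0.85, 0.90 and 0.30 in Aphidicolin 1 to 6, and 1.03, 0.90 and 0.78 in DMSO 1 to 3 (Aphidicolin mean 0.73 ± 0.07 (SE, n = 6), limma adjusted p = 4.3e-04). All embryos but Aphidicolin 6 lay close together there.

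Region chr18:85000001-85600000 fell with a DMSO score of 0.956. Its step was 0.45, 0.44, 0.83, 0.93, 0.87 and 0.36 in Aphidicolin 1 to 6, and 0.96, 0.97 and 0.85 in DMSO 1 to 3. Here Aphidicolin 1 and 2 were low as well as Aphidicolin 6, the same embryos whose profile was flattest overall. Region chr7:7200001-7800000 fell with a score of 0.943, and its step of 0.25, 0.45, 1.03, 0.87, 0.88 and 0.25 in Aphidicolin 1 to 6 against 1.19, 1.18 and 0.92 in DMSO 1 to 3 showed the same 3 embryos low.

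Region chr3:90200001-91000000 fell with a score of 0.934, and its step was 0.49, 0.56, 0.74, 0.77, 0.82 and 0.35 in Aphidicolin 1 to 6, and 1.09, 0.96 and 0.76 in DMSO 1 to 3. Region chr1:95800001-96400000 fell with a score of 0.930, and its step was 0.56, 0.70, 0.87, 0.90, 0.59 and 0.26 in Aphidicolin 1 to 6, and 0.91, 0.95 and 0.94 in DMSO 1 to 3. Region chr4:59800001-60400000 fell with a score of 0.902, and its step was 0.57, 0.69, 0.96, 1.02, 0.85 and 0.27 in Aphidicolin 1 to 6, and 1.00, 0.89 and 0.86 in DMSO 1 to 3. In each of these 3 regions Aphidicolin 6 had the lowest step of the 9 embryos.

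With the 2 borders of the stretch of few reads and chr7:7200001-7800000 (also near windows of few reads) left out, the next regions by score were chr3:92600001-93600000, chr12:114200001-115000000 and chr8:75200001-76000000, a choice made after the values were seen. The first of them faces chr3:90200001-91000000 across a low stretch, with a mean step of 0.56 ± 0.24 (SD, n = 6) in Aphidicolin embryos and 0.85 ± 0.15 (SD, n = 3) in DMSO embryos. At chr12:114200001-115000000 the step was -0.26 in Aphidicolin 6, against the DMSO direction, and 0.30 to 0.69 in the other 5 Aphidicolin embryos, with 0.77, 0.90 and 1.02 in DMSO 1 to 3. The cells of Aphidicolin 6 ran from -0.50 to 1.94 there.

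**Figure D4:**
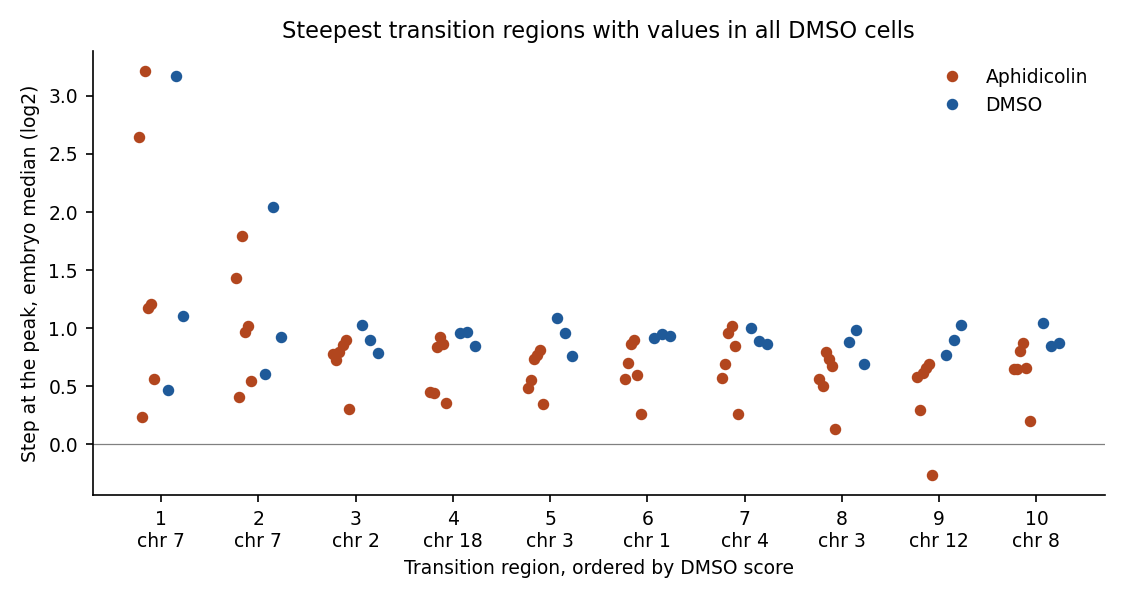
Step (log2 scale, DMSO direction positive) at the 10 steepest transition regions away from windows of few reads, with Aphidicolin embryos left of DMSO embryos in each region. Each point is the median of 1 embryo's cells, and points of both groups spread from under 0.5 to over 3 at the first region on chromosome 7, while the lowest point of most other regions is Aphidicolin 6.

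The third question was whether copy-number breaks of Aphidicolin cells fall on the transitions. The shared profile was removed from each cell, gains and losses were called over 1-Mb windows, and the ends of segmental events were taken as breakpoints. Aphidicolin cells had 412 breakpoints in 44 of 47 cells and DMSO cells 22 in 8 of 20 cells. Breakpoints of 1 embryo within 2 Mb of each other were joined, which gave 33, 25, 70, 23, 32 and 46 break sites in Aphidicolin 1 to 6, and 0, 5 and 2 in DMSO 1 to 3.

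Of the 229 break sites of Aphidicolin embryos, 87 (38%) lay within 1 Mb of a transition bin, and of the 2033 positions where a break could have been called, 773 (38%) did. By embryo the sites near a transition were 11, 11, 25, 9, 15 and 16 in Aphidicolin 1 to 6, or 33.3%, 44%, 35.7%, 39.1%, 46.9% and 34.8%. Embryos lay on both sides of the share of positions. The difference averaged 0.95 ± 5.44 points (SD, n = 6), with 3 of 6 embryos above 0 and an exact two-sided sign-flip permutation p of 0.688 (adjusted p = 0.688). A departure from the share of positions larger than the spread between embryos was not found.

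Distances gave the same picture. On a transition bin lay 13.1% of the sites and 12% of the positions, and at up to 1 Mb from one 24.9% and 26%. Between 1 and 2 Mb the shares were 21.4% of sites and 18.8% of positions, and between 2 and 4 Mb 25.8% and 22.6%. Between 4 and 8 Mb they were 10.9% and 14.7%, and beyond 8 Mb lay 3.93% of sites and 5.85% of positions. By the class of the bin that holds it, a narrower count because a site on the border of a transition bin is at distance 0 but can belong to the next bin, 21 sites (9.17%) were in transition bins, 135 (59%) in other middle-level bins, 36 (15.7%) in high bins and 35 (15.3%) in low bins. Among positions these classes made up 8.80%, 50.3%, 19.4% and 21.3%, and the classes were not tested.

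**Figure D5:**
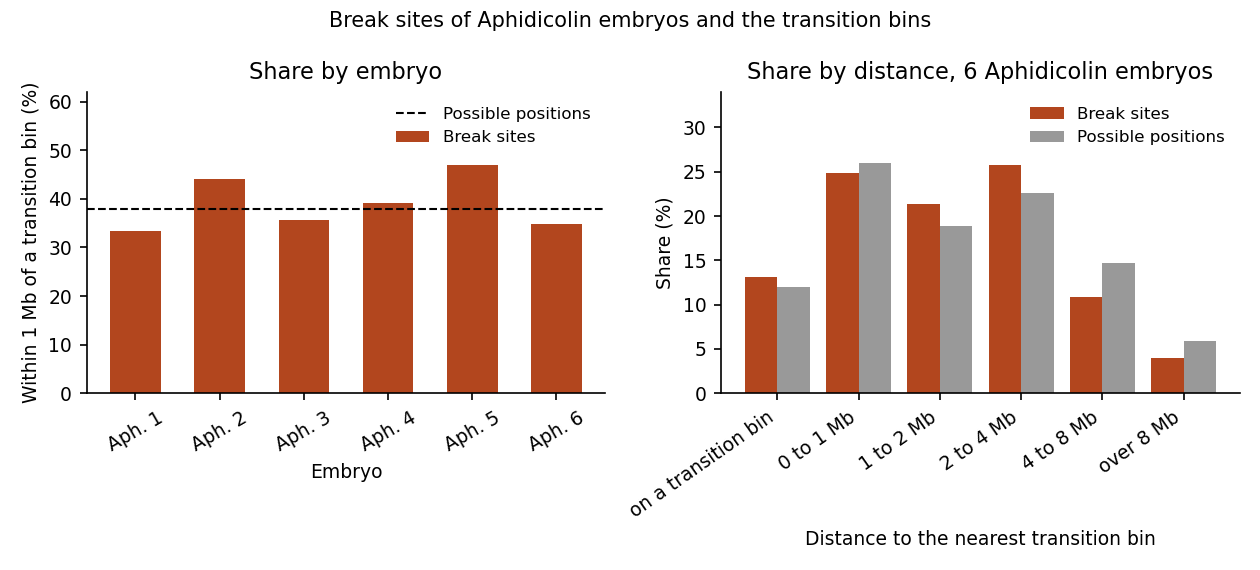
Left panel, share of break sites within 1 Mb of a transition bin in each Aphidicolin embryo (bars, %) with the share among all possible positions as a dashed line at 38%. Right panel, share of the 229 break sites and of the 2033 possible positions (%) by distance from the nearest transition bin; the bars of both kinds differ by less than 4 points at each distance.

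In DMSO embryos 6 of the 7 break sites lay within 1 Mb of a transition bin, 5 of them in DMSO 2. Of those 5, 2 were shared by 7 of its 8 cells, cells 12 to 18, and bounded 1 loss on chromosome 12 between positions 16000000 and 26000000, with a change of -0.90 at the left and 0.77 at the right edge as the largest of a cell. Both edges lay on transition bins. The remaining 3 sites of DMSO 2 were on chromosome 7. With so few sites no share is compared between the treatments.

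The direction of breaks was then set against that of the DMSO step. Of the 162 breakpoints of Aphidicolin cells within 1 Mb of a transition bin, 72 ran in the DMSO direction of that bin. By embryo these were 9 of 20, 8 of 32, 17 of 42, 9 of 15, 13 of 28 and 16 of 25 in Aphidicolin 1 to 6. The share departed from 50% by -3.18 ± 14.1 points (SD, n = 6; exact two-sided sign-flip permutation p = 0.625, adjusted p = 0.688). At sites where cells of 1 embryo break in both directions (50 of the 87, below) the share is held near 50% by construction, so this test says little about direction. Without removal of the profile the share departed by 29.5 points, in the DMSO direction.

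Break sites were also compared in kind. Sites with breaks of both directions had a rise in level in 1 cell and a fall in another cell of the embryo. They were 50 of 87 sites within 1 Mb of a transition bin (57.5%) and 91 of 142 sites farther away (64.1%). Whether a gain faced a loss at them was not counted. At 54 of 87 sites near a transition (62.1%) and 94 of 142 farther away (66.2%) at least 2 cells of the embryo had a breakpoint. These shares were not tested, since sites of 1 embryo are not independent.

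Each break site within 1 Mb of a transition bin was counted only for its nearest region. Counted this way, 293 of the 366 transition regions had no break site of an Aphidicolin embryo, 60 had sites of 1 embryo and 13 of at least 2. A region can thus lie within 1 Mb of a site that was counted for its neighbour. The single region with sites of 3 embryos by this count was chr2:48200001-49000000, a rise with a DMSO score of 0.656. Cells 37 and 38 of Aphidicolin 2, cells 61 and 66 of Aphidicolin 5 and cells 68 and 69 of Aphidicolin 6 had breakpoints at the same window boundary (position 49000000), and in each pair 1 cell changed upward and the other downward. The largest changes of a pair were 1.09, 0.72 and -1.01 on the log2 scale. The median step at this region was 0.25, 0.24, 0.45, 0.55, 0.53 and 0.09 in Aphidicolin 1 to 6, and 0.63, 0.77 and 0.45 in DMSO 1 to 3. Sites of several embryos also met away from transitions. Those of Aphidicolin 1, 2 and 3 met at position 86000000 of chromosome 3, 4.2 Mb from a transition bin. Those of Aphidicolin 1, 3 and 4 met at position 51000000 of chromosome 17, 1.8 Mb from one. Recurrence near and away from transitions was not compared.

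At chr3:58600001-59400000, a fall with a DMSO score of 0.798, cells 49 and 50 of Aphidicolin 3 and cells 71 and 72 of Aphidicolin 6 had breakpoints of opposite direction at position 59000000. The largest change was -6.37 in Aphidicolin 3, a drop to almost no reads, and -1.03 in Aphidicolin 6. At chr3:136600001-137400000 4 cells of Aphidicolin 2 (cells 35, 40, 41 and 42) and 2 of Aphidicolin 4 (cells 53 and 55) had breakpoints at position 136500000, of which 2 of 4 and 1 of 2 ran upward. Opposite breaks in 2 cells of an embryo were also the rule at chr12:44600001-45000000 (Aphidicolin 5 and 6) and chr16:51000001-51200000 (Aphidicolin 1 and 2).

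At chr14:100000001-100600000 the breakpoints were those of 2 cells of Aphidicolin 1 and 3 of Aphidicolin 5, again in both directions. By contrast, the 6 cells of Aphidicolin 2 with a breakpoint near chr12:15800001-16800000 all changed downward (largest change -0.86), at position 17500000, and the 1 cell of Aphidicolin 4 changed upward (0.50). The same 6 of the 8 cells of Aphidicolin 2 changed upward again at position 27500000 (largest change 0.94). Region chr12:15800001-16800000 also holds the called left edge of the loss shared by most cells of DMSO 2. Whether such shared edges are breaks of single cells or a level of the whole embryo was not tested. At chr7:31600001-32400000, the left edge of the strip described above, all 3 breakpoints (1 cell of Aphidicolin 1 and 2 cells of Aphidicolin 3) ran downward with changes of up to -0.57. These embryos were the 2 Aphidicolin embryos with the deepest strip.

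At chr7:47000001-47200000 cell 30 of Aphidicolin 1 and cells 43, 49 and 50 of Aphidicolin 3 had breakpoints at position 48000000. Of these, cells 30, 43 and 49 also had the breakpoints at the left edge of the strip. At chr7:80000001-80200000 cells 35 and 41 of Aphidicolin 2 changed in opposite directions and cell 70 of Aphidicolin 6 changed upward (0.52). The mean step in Aphidicolin embryos at these 10 regions ranged from 0.158 at chr7:47000001-47200000 (limma adjusted p = 0.0820) to 1.51 at chr7:31600001-32400000. The latter is the edge of the strip that differs between embryos of both groups. The next largest was 0.551 at chr12:15800001-16800000, and the median over all 366 regions was 0.410.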

How the data were processed

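The deposited tables hold log2 values per cell and bin, centred by the authors on medians of the same cell. The build was mm9, per the submitters' processing notes, and coordinates are those of the tables. Neither the aligner nor read filters are named in the sources used here. The deposited metadata give each cell's embryo and collection window, other columns per the file headers, and a noise score and filter marks, coded as a score of 1 or 0, that the authors give without a scale. There were 0 columns of samples outside the 67 cells.

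Of 13103 bins, 12836 with a value in most of the 67 cells were used. Values were turned back into whole reads (100% within 0.01 reads), and a missing value was set to 0.5 reads. For this a median was fitted per cell, separately for each set of bins whose windows do not overlap. A median window held between 261 and 1056 reads over Aphidicolin cells and between 577 and 1120 over DMSO cells. Amplified reads are not independent molecules, so depth speaks for counting error only.

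Steps of each embryo (median over cells) were fitted with limma 3.58.1 over 11828 bins. The 6 embryo-level tests were exact permutation tests with Benjamini-Hochberg adjustment, whose smallest unadjusted p is 0.03125 over 6 embryos and 0.0119 over 84 splits; the scripts were tested on simulated data. For breaks, a profile (mean of both groups' medians) was removed by Huber regression over 2397 windows of 1 Mb, less 3 of few reads. Change points were placed by penalised least squares (penalty factor 4, minimum length 10 Mb, merging within 0.35), with gains above 0.32, losses below -0.42 and events over at least 90% of a chromosome called whole.

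Regions named are the 10 with the largest scores and up to 10 with break sites of at least 2 Aphidicolin embryos, ranked by embryos and then cells. For the latter, a site within 1 Mb of a transition bin was counted only for its nearest region. Members, lists and tests were chosen with earlier results of these data known. Alternatives varied the share of bins, score width, gaps, level filter, breakpoints, call limits and embryos. No genes or sequences are given, since no reference of the tables' build was used here.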

Additional observations from a re-analysis of the deposited data

Results flagged for a closer look

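In 46 groups of 4 to 10 cells or embryos, 3 values lay apart from the rest of their group by Dixon's criterion at the 95% level, where chance alone gives about 1 in 20. The step at the transition bins was 0.611 in DMSO cell 17, against 0.687 to 0.736 in the other cells of DMSO 2. At chromosome 2 (peak bin chr2:90000001-90200000) the step was 0.304 in Aphidicolin 6, against 0.730 to 0.903 in the other Aphidicolin embryos. At chromosome 8 (peak bin chr8:75400001-75600000) it was 0.198 in Aphidicolin 6, against 0.646 to 0.876 in the others.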

How the results depend on the processing

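No paired analysis was possible because no embryo or cell number ties an Aphidicolin sample to a DMSO sample. The step at transition bins over that at other bins in Aphidicolin embryos stayed between 0.24 and 0.31 over 9 alternatives and between 0.26 and 0.32 with 1 embryo left out in turn; with 5 Aphidicolin embryos the sign-flip p cannot go below 0.0625. The Aphidicolin minus DMSO step stayed between -0.23 and -0.18 over 10 alternatives and between -0.24 and -0.16 with 1 embryo left out. As a share of the high to low distance the difference of -2.12 points ran from -4.63 (10 bins in the score; adjusted p = 0.125) to -1.49 over 10 alternatives, with -3.24 for transition bins chosen from all DMSO cells. It ran from -3.24 to 0.38 with 1 embryo left out, positive without DMSO 1. The spread difference ran from 0.0447 to 0.0681. Transition bins with a step in Aphidicolin embryos numbered 1017 to 1065 with 1 embryo left out and 1749 with no bins left out by level, a choice that takes more bins; bins with a different step stayed at 0.

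The break site difference of 0.95 points changed sign with 3 bins in the score (-0.93), with 10 bins (-2.72), without the level filter (-1.27) and with stricter call limits (-0.65). With 1 embryo left out it ran from -0.99 to 2.59, negative without DMSO 2 (-0.25) and without DMSO 3. Without removal of the profile it was 11.3 points (adjusted p = 0.112). The departure of the direction share turned positive with a minimum segment of 5 Mb (1.59 points), without removal of the profile (29.5) and without Aphidicolin 2 (0.77; range -6.43 to 0.77). The cause of these reversals was not tested, and every adjusted p of the 6 embryo-level tests stayed above 0.05 in each alternative run. With so few embryos the sign-flip tests can hardly fall below that after adjustment. The alternatives without bins near windows of few reads and without breaks shared by most of an embryo's cells were chosen after seeing the data. Breaks are placed no finer than the 1-Mb windows used. Called segments could not be shorter than 10 Mb, so an edge of an event of that length can be set by this limit. The loss of DMSO 2 on chromosome 12 had this length. So had several events of Aphidicolin cells, among them that of cell 70 between positions 70000000 and 80000000 of chromosome 7. Further examples are cell 41 between 28000000 and 38000000 of chromosome 13 and cell 54 between 17000000 and 27000000 of chromosome 12. The sites of Aphidicolin 2 at 17500000 and 27500000 of chromosome 12 are another. Some of these edges are among the sites within 1 Mb of a transition bin, and how many such edges there are was not counted. For such edges nearness to a transition bin says little. With a minimum of 5 Mb the break site difference was 2.00 points.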
